A study of Danio rerio with 8 samples.

Results

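The genes described here encode the mTOR complexes and the proteins that set their activity and carry out their signal: TSC and Rheb, GATOR1 and GATOR2, the sestrins, FLCN and FNIP, the kinases AKT and PDK1 with the stress gene ddit4, S6 and RSK kinases, and the 4E-BP translation repressors. They were chosen as 38 gene symbols, and 35 of them name a row among the 24221 genes of the deposited count table. 31 of the 35 had enough counts to be tested, out of 16086 tested genes. fnip2, tsc1a and rps6kb1b were not analysed here.

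Polyadenylated RNA was measured in GFP-positive cells of the macrophage lineage, sorted by flow cytometry from dissociated zebrafish larvae (strain TL) 6 days post fertilization. The GFP is driven by the mpeg promoter, which is active in macrophages and microglia. 4 libraries were made from rraga mutants and 4 from their wild-type siblings. All larvae, of both genotypes, were kept in water with methylene blue and PTU, an inhibitor of pigment formation. Genotype was scored by confocal microscopy at 4 and 5 days, and the labels name neither the rraga allele nor the number of larvae in a library. Libraries carry the numbers of their table columns, 1, 2, 4 and 5 in each genotype. Since RNA came from pools of sorted cells, fewer cells of a type and less RNA per cell cannot be told apart.

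mTORC1 is a kinase complex on the lysosomal surface that promotes protein synthesis and restrains lysosome formation and autophagy when amino acids and growth factors are plentiful. Amino acids act through the Rag GTPases, of which rraga encodes RagA. The GATOR1 complex inactivates RagA, GATOR2 opposes GATOR1, sestrins restrain GATOR2, and FLCN with FNIP acts on the partner Rag proteins. Growth factors act through PI3K, PDK1 and AKT, which release Rheb from the TSC complex. In macrophages and microglia the pathway is known for coupling lysosome content to nutrient supply. Most of its known regulation is by protein contacts and phosphorylation, which transcript levels do not report.

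Mutant libraries held 24940664 to 30911560 counts and sibling libraries 25530526 to 29147340. The targeted gene rraga stood at 193, 220, 195 and 189 CPM (counts scaled to the TMM-adjusted library size) in mutant libraries 1, 2, 4 and 5, and at 129, 135, 137 and 114 CPM in the siblings. Every mutant library was above every sibling library, and a transcript level does not check a genotype whose allele is not given. Summed transcripts of 8 macrophage lineage markers made up 0.450% to 0.549% of counts in mutants and 0.536% to 0.648% in siblings, although coro1a of that list was near 0 (0.370 and 0.681 CPM). Of these 8 markers spi1b rose (mean of 1428 CPM in mutants against 685 in siblings). By contrast mpeg1.1 (65.5 against 231 CPM), cd74a (28.4 against 279 CPM) and lcp1 (2468 against 3846 CPM) fell. Markers of other cells were present: 4 neutrophil markers took 0.0831% to 0.227% of mutant and 0.0749% to 0.281% of sibling counts, and 6 epithelial markers 0.0258% to 0.0815% and 0.0756% to 0.129%, with 1 of 5 tested lower (cyt1). lyz of the neutrophil list was near 0 (mean of 0.0584 CPM in mutants and 0.314 CPM in siblings) and was not tested. The 6 skeletal muscle markers took 0.338%, 0.0369%, 0.0520% and 0.159% in mutant libraries 1, 2, 4 and 5, against 0.209% to 0.396% in siblings, and none of the 5 tested passed. 3 erythroid and 5 neuronal markers each stayed under 0.01% in every library.

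In the main test, which leaves library number out, the share of mTORC1 pathway genes that changed was near that of all genes. With library number as a block the share was higher (51.6% against 34.4%). The labels do not state such a pairing. The numbers come from the column names, their use as pairs was decided from these data, and the members were chosen with earlier results known. In the main test 7 of the 31 tested members rose and 3 fell in the mutants (22.6% and 9.68%). Of all tested genes 14.5% rose and 13.9% fell. Taken in either direction 32.3% of members passed, against 28.4% of all tested genes (quasi-likelihood test of edgeR, p adjusted by Benjamini-Hochberg over all tested genes, threshold 0.05). Those that rose were both PDK1 genes, akt1, 2 of the 3 GATOR1 genes (depdc5 and nprl3), fnip1 and eif4ebp3l. Those that fell were rps6ka1, eif4ebp3 and akt3a. None of the 7 member genes of the mTOR complexes, 4 member genes of GATOR2 or 3 sestrins passed.

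The libraries of the genotypes did not overlap for 12 of the 31 members (38.7%), against 31.4% of all tested genes. The median log2 fold change of the members was 0.11, against -0.085 for all tested genes, and the median absolute log2 fold change was 0.47 in both. Scaled by library size alone, which put the median of all tested genes at -0.26, 4 of the 31 members were higher and 8 lower. At that scaling 1659 of the 16086 tested genes were higher and 3123 lower. Of all called genes 51.1% were higher with TMM factors and 34.7% with library size alone. With library number as a block, 16 of the 31 members passed, 9 of them higher and 7 lower, where 2857 of the 16086 tested genes were higher and 2673 lower. That fit added 7 members, all 3 sestrins, ddit4, akt1s1, eif4ebp1 and nprl2, and lost akt3a.

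**Figure D1:**
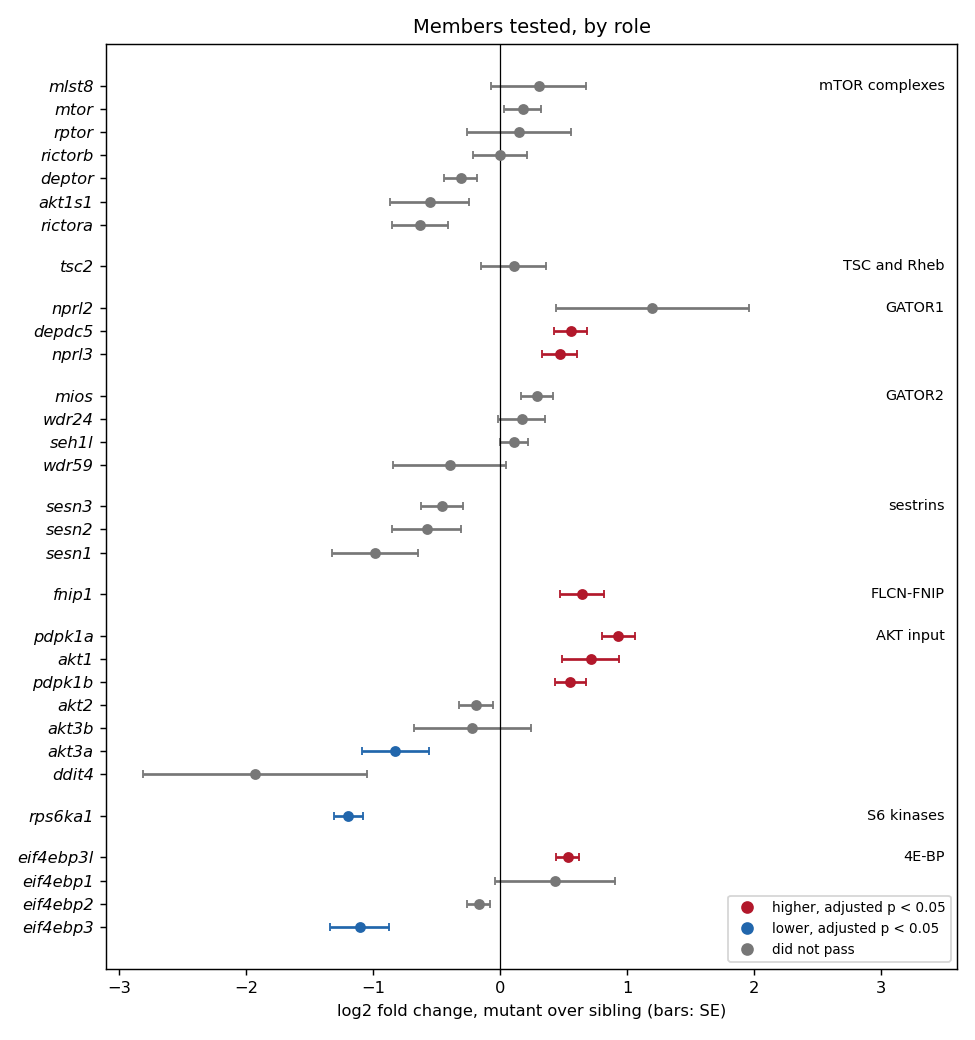
Log2 fold change of the 31 tested members, mutant over sibling, grouped by role, with bars for the standard error and colour for the test result. The 10 members that passed lie in GATOR1, FLCN-FNIP, AKT input, S6 kinases and 4E-BP, and the 7 genes of the mTOR complexes spread around 0.

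Per kilobase of gene length, the members spanned a wide range of levels. 3 of the 4 4E-BP genes had the highest means: in siblings eif4ebp1 stood at 150 ± 106 CPM per kilobase (SD, n = 4), eif4ebp2 at 125 ± 8.14 and eif4ebp3l at 83.8 ± 6.35. The order of eif4ebp1 and eif4ebp2 lay within the spread of eif4ebp1, whereas eif4ebp2 and eif4ebp3l were apart in siblings. In mutants eif4ebp2 was at 111 ± 5.10 and eif4ebp3l at 121 ± 6.40 CPM per kilobase, which overlapped within their spread. The remaining gene, eif4ebp3, was at 31.2 ± 2.57 in siblings and 14.5 ± 4.77 in mutants. pdpk1b followed at 37.5 ± 3.86 and akt2 at 32.8 ± 5.84 CPM per kilobase, which did not differ beyond their spread. mtor itself was at 2.31 ± 0.308 CPM per kilobase in siblings, and its partners rptor of mTORC1 at 0.312 ± 0.101 and rictora and rictorb of mTORC2 at 0.759 ± 0.180 and 0.884 ± 0.113. akt1 has a gene length of only 744 bases in the table, so its level of 11.4 ± 3.32 CPM per kilobase depends on a short gene model.

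4 members had too few counts to test. rheb, the GTPase that activates mTORC1, had 1 to 10 counts per library, and flcn, the folliculin gene, had 0 to 4. tsc1b had 2 counts in sibling library 2 and rps6kb1a, an S6 kinase gene, 2 counts in sibling library 1, and each was listed at 0 elsewhere. A count of 0 over the 4 mutant libraries allows up to 0.0283 CPM (3 counts, counting error only). Such values do not show that a gene was silent in the cells, since sec13, which is used in all cells, was also listed at 0 in the 4 mutant libraries. sec13 is no member, and encodes a further subunit of GATOR2 that also belongs to the nuclear pore and a secretory coat. Among siblings it had 5 counts in library 5 and 0 elsewhere. rhebl1, a Rheb-like gene that is no member and was chosen after its values were seen, stood at 112 to 145 CPM in mutants and 83.1 to 122 CPM in siblings.

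**Figure D2:**
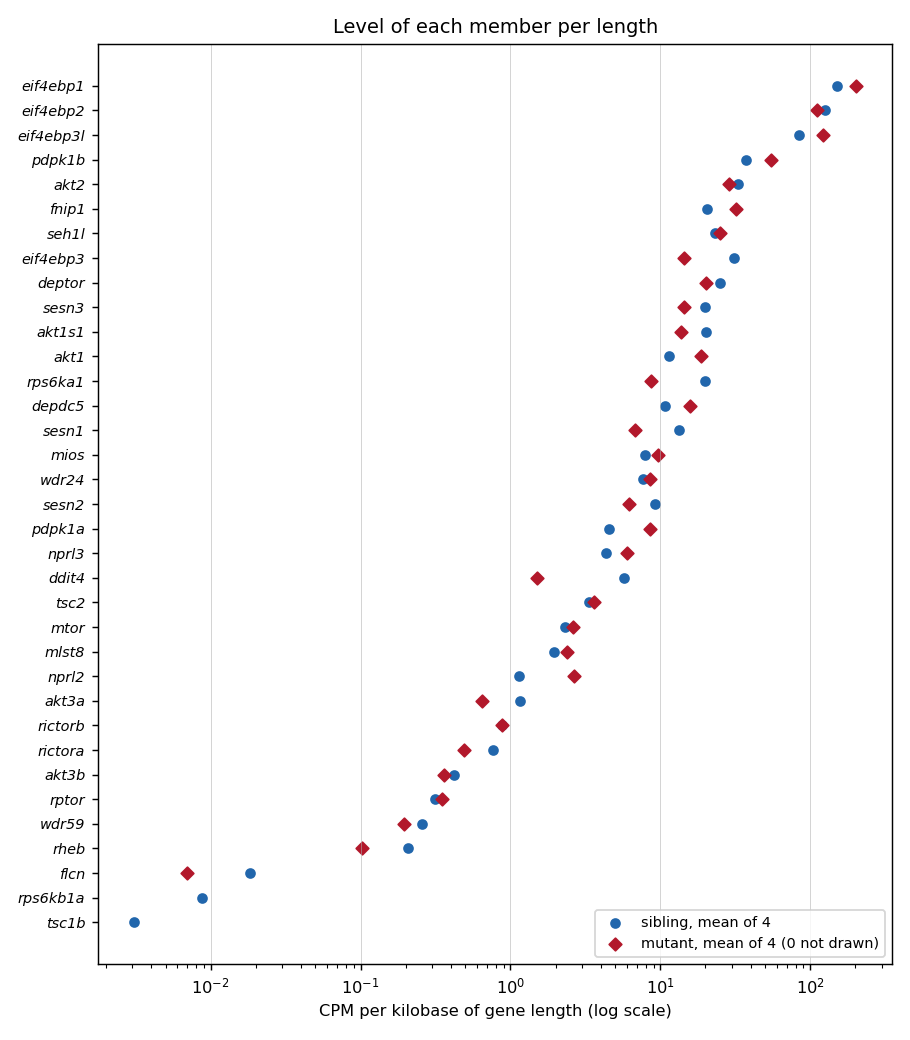
Mean level of each of the 35 members in CPM per kilobase of gene length on a log axis, with circles for siblings and diamonds for mutants (n = 4 each). The 4E-BP genes eif4ebp1, eif4ebp2 and eif4ebp3l are at the top, and rheb, flcn, rps6kb1a and tsc1b at the bottom.

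Both PDK1 genes rose. pdpk1a (ENSDARG00000062304, chromosome 3, 45283391 to 45308394, minus strand) encodes PDK1, which phosphorylates AKT and S6 kinases. It stood at 44.2, 44.8, 44.9 and 43.0 CPM in mutant libraries 1, 2, 4 and 5 and at 22.5, 28.1, 23.2 and 19.1 CPM in the siblings of those numbers. The mutant libraries lay within 2 CPM of each other, and all stood above the siblings. The gene rose 1.91-fold (log2 fold change 0.93, SE 0.130, adjusted p = 8.1e-04), and it passed under every alternative run.

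Its paralog pdpk1b (ENSDARG00000018285, chromosome 24, 37301852 to 37326236, minus strand) was the more abundant copy, with 86.4% ± 1.39 of the pair's level per length in mutants and 89.3% ± 0.689 in siblings. It stood at 151, 202, 184 and 171 CPM in mutants and at 120, 132, 127 and 103 CPM in siblings. No sibling library reached the lowest mutant library. The rise was 1.47-fold (log2 fold change 0.55, SE 0.121, adjusted p = 0.00811). The log2 ratio of pdpk1a to pdpk1b was higher in mutants by 0.38 (exact two-sided permutation test, p = 0.0286, the smallest that 4 against 4 libraries allow), and it did not pass after adjustment over the 6 paralog pairs compared (adjusted p = 0.0856). Adjusted over 6 pairs, that smallest p passes only if most pairs reach it. The adjusted test could therefore hardly pass, and a pair that did not pass is not shown to be unchanged. The sources used here do not say how reads shared by such gene copies were counted, so the split between paralogs is uncertain.

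The 4 AKT genes among the members encode kinases that inhibit the TSC complex and PRAS40. They held 1 gene that rose (akt1), 1 that fell (akt3a) and 2 that did not pass. A further AKT2-like gene, akt2l, is no member and was chosen after its values were seen. It fell (log2 fold change -2.10) and is described under other observations. akt1 (ENSDARG00000099657, chromosome 17, 1514711 to 1533170, plus strand) stood at 14.0, 14.7, 10.8 and 16.3 CPM in mutants and at 12.1, 6.60, 7.40 and 7.91 CPM in siblings. Mutant library 4 fell below sibling library 1, so the groups overlapped, and the mutant was higher within each of the 4 library numbers. The rise was 1.64-fold (log2 fold change 0.71, SE 0.225, adjusted p = 0.0411). It did not pass scaled by library size alone (adjusted p = 0.104), without mutant library 1 (0.0818), 2 (0.0902) or 5 (0.0821), or without sibling library 2 (0.0856), 4 (0.0975) or 5 (0.0834).

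akt3a (ENSDARG00000104810, chromosome 13, 11175208 to 11378355, minus strand) was scarce, at 2.67, 1.97, 3.47 and 3.75 CPM in mutants and 5.87, 5.37, 4.19 and 5.61 CPM in siblings. Every mutant library was below every sibling library. Its log2 fold change came to -0.83 (SE 0.264, adjusted p = 0.0431), and the call was lost when library number was a block (adjusted p = 0.0519), when factors were median-of-ratios (0.0508) and when no filter was used (0.0809). It was also lost without mutant library 1 (0.100), 2 (0.0966) or 4 (0.0530) and without sibling library 1 (0.102), 2 (0.0877) or 5 (0.101). With a stricter filter of 5 CPM in 4 libraries akt3a was not tested.

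akt2, the most abundant AKT gene per length among the members, was at 96.7 ± 5.44 CPM in mutants and 110 ± 19.6 CPM in siblings and did not pass (adjusted p = 0.322). akt3b was near 1 CPM, at 0.819 ± 0.401 against 0.958 ± 0.305 CPM. Of the summed level per length of the 4 AKT members, akt1 held 38.5% ± 4.17 in mutants against 25.2% ± 8.07 in siblings, and akt2 59.5% ± 4.29 against 71.3% ± 8.17. These shares depend on the short gene model of akt1 (744 bases, against 3363 for akt2) and leave out akt2l. Not divided by length, akt1 was at 13.9 ± 2.33 CPM in mutants and 8.51 ± 2.47 CPM in siblings, far below akt2. The log2 ratio of akt1 to akt2 was higher in mutants by 0.88 and that of akt3a to akt3b lower (-0.59), and neither passed the exact permutation test after adjustment over the 6 pairs (adjusted p = 0.0856 and 0.103).

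GATOR1, which acts on RagA directly, held 2 genes that rose. depdc5 (ENSDARG00000078105, chromosome 10, 17171604 to 17222083, minus strand), the subunit that contacts the Rag proteins, stood at 86.6, 97.7, 85.0 and 87.5 CPM in mutants and at 61.7, 70.6, 63.01 and 47.7 CPM in siblings. The groups did not overlap, and the rise was 1.47-fold (log2 fold change 0.55, SE 0.129, adjusted p = 0.0108). nprl3 (ENSDARG00000010918, chromosome 3, 55045346 to 55079742, minus strand) stood at 19.4, 16.7, 18.6 and 16.0 CPM in mutants and at 11.7, 14.3, 11.9 and 13.3 CPM in siblings.

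The nprl3 libraries did not overlap either, and the rise was 1.38-fold (log2 fold change 0.47, SE 0.135, adjusted p = 0.0287). That call was lost scaled by library size alone (adjusted p = 0.163), without mutant library 1 (0.0758) or 4 (0.0601), and without sibling library 1 (0.0758) or 4 (0.0700). nprl2, which encodes the catalytic subunit of GATOR1, was scarce and differed more between library numbers than between genotypes, at 7.41, 4.69, 0.662 and 3.45 CPM in mutants and 2.77, 2.69, 0.274 and 1.31 CPM in siblings. Library 4 was lowest in both genotypes, and the mutant was higher within each of the 4 numbers. nprl2 did not pass (log2 fold change 1.20, SE 0.759, adjusted p = 0.278), and it passed with library number as a block (adjusted p = 0.0133).

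The 4 member genes of GATOR2, the complex that counters GATOR1, showed no change that passed. The most abundant of them per length was seh1l, which also belongs to the nuclear pore. It stood at 81.2, 105, 98.7 and 82.7 CPM in mutants and 80.8, 86.3, 88.8 and 84.5 CPM in siblings. The groups overlapped (log2 fold change 0.11, SE 0.110, adjusted p = 0.504). mios was 32.0 to 36.4 CPM in mutants and 22.5 to 31.1 CPM in siblings. These ranges did not overlap, yet the difference did not pass (log2 fold change 0.29, SE 0.127, adjusted p = 0.120).

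wdr24 stood at 25.5 ± 6.64 against 22.7 ± 2.24 CPM and wdr59 at 1.06 ± 0.450 against 1.41 ± 0.415 CPM. Both lie over genes on the other strand: zgc:112496 held 28.4% as many counts as wdr24, and nob1 held 3659% as many as wdr59. The sources used here do not give the strand setting of the counting, so these values are uncertain.

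fnip1 (ENSDARG00000102171, chromosome 21, 45510448 to 45553237, plus strand), whose protein joins folliculin in the complex that acts on the partner Rag proteins, rose 1.56-fold. It stood at 184, 221, 199 and 247 CPM in mutants and at 107, 118, 181 and 139 CPM in siblings. Sibling library 4 came within 4 CPM of the lowest mutant library, and the groups did not overlap. The log2 fold change was 0.64 (SE 0.172, adjusted p = 0.0202), and the call was lost without sibling library 1 (adjusted p = 0.0540) and scaled by library size alone (0.0535).

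**Figure D3:**
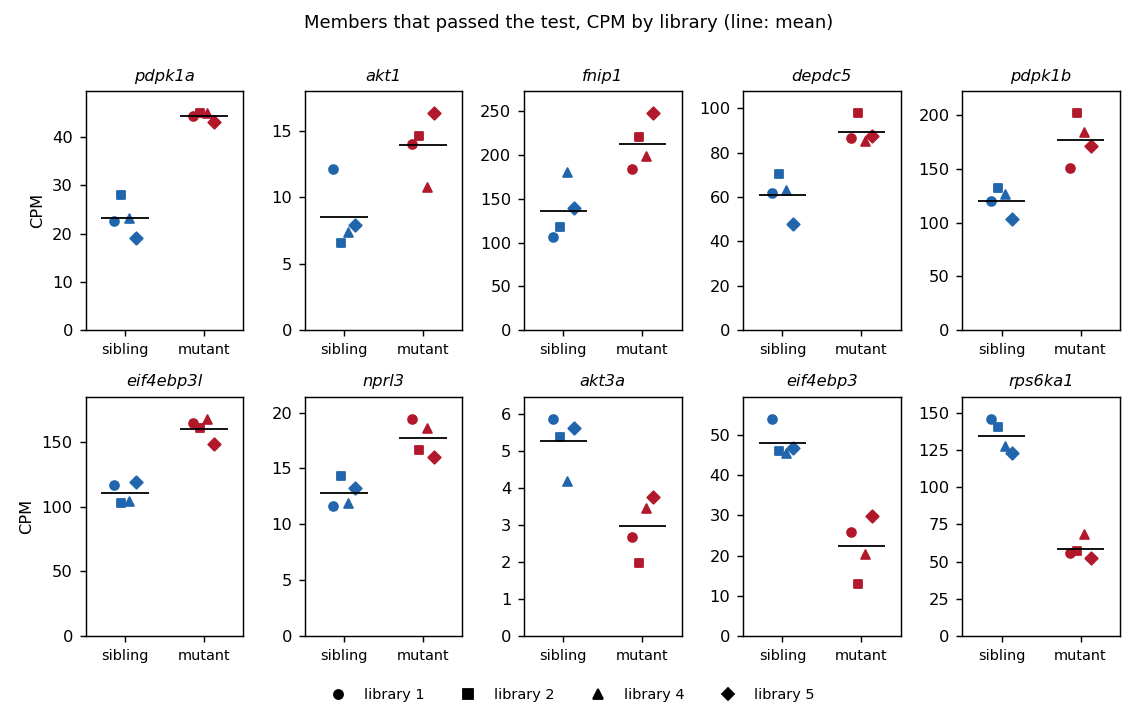
CPM in each library for the 10 members that passed, with siblings on the left, mutants on the right, a symbol for each library number and a line at the mean. All but akt1 show mutant libraries wholly above or wholly below the sibling libraries.

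The sestrins, stress-induced inhibitors of mTORC1 that act on GATOR2, were lower in the mutant of every library number, and none passed. Such agreement was common: 21 of the 31 tested members had the same sign in all 4 numbers, 11 lower and 10 higher. Its share of all tested genes was not counted. sesn1 stood at 31.1, 21.2, 20.0 and 62.5 CPM in mutants and at 66.6, 55.0, 68.1 and 77.4 CPM in siblings. Mutant library 5 lay within the sibling range and the other 3 mutant libraries lay far below it. The difference on the log2 scale was -0.98 (SE 0.338, adjusted p = 0.0554). It passed by DESeq2 (adjusted p = 0.0145), by limma-voom (0.0216), without mutant library 5 (0.00110), with a stricter filter of 5 CPM in 4 libraries (0.0397) and scaled by library size alone (0.0365). In the block fit on library number the adjusted p was 0.0101.

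sesn2, for the leucine-binding sestrin, stood at 17.6, 15.1, 8.64 and 12.9 CPM in mutants and 29.9, 19.9, 15.3 and 16.1 CPM in siblings. The groups overlapped (log2 fold change -0.58, SE 0.271, adjusted p = 0.145), and the gene passed with library number as a block (adjusted p = 0.0179). sesn3, the most abundant sestrin gene per length, stood at 44.6, 60.1, 55.4 and 55.2 CPM in mutants and 54.7, 86.3, 87.3 and 67.5 CPM in siblings. Library 1 was the lowest of each genotype.

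The log2 fold change of sesn3 was -0.46 (SE 0.168, adjusted p = 0.0700). It passed in the block fit (adjusted p = 0.0132), when sibling library 1 was left out (0.0245), with the stricter filter (0.0296) and scaled by library size alone (0.0180). bloc1s3, which overlaps sesn3 on the other strand with 18.8% as many counts, rose (log2 fold change 1.01, adjusted p = 0.00604). The 3 sestrin genes summed to 84.0 to 131 CPM in mutants and 151 to 171 CPM in siblings, ranges that did not overlap. Of single tested genes 31.4% did not overlap, and no such share was taken for sums. The log2 ratio of sesn1 to sesn3 was lower in mutants (-0.69), which did not pass the exact permutation test over the 6 pairs (adjusted p = 0.2).

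ddit4, the REDD1 gene that restrains mTORC1 through the TSC complex under stress, showed the same order within every number. It stood at 1.94, 0.351, 5.10 and 1.93 CPM in mutants and at 12.2, 0.714, 16.0 and 6.66 CPM in siblings. Library 2 was the lowest of both genotypes, so the groups overlapped. The log2 fold change was -1.93 (SE 0.884, adjusted p = 0.137). It passed in the block fit (adjusted p = 0.00387) and when sibling library 2 was left out (0.0422).

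Immediate early genes, which many cells induce on handling or stimulation, were also lower in the mutants. Of the 13 immediate early genes tested, 10 fell and 1, atf3, rose, where 13.9% of all tested genes fell and 14.5% rose. The list was chosen after values were seen, so the count only describes these genes. Summed, they made up 0.572% to 0.680% of counts in mutants and 1.06% to 1.16% in siblings. The skeletal muscle markers were also lower in mutant libraries 2 and 4 than in any other library, as sesn1 and akt1s1 were. In mutant library 1 these markers were within the sibling range (0.338%), and sesn1 (31.1 CPM) and akt1s1 (29.1 CPM) were below every sibling library. In mutant library 5 the markers were below every sibling library (0.159%), and akt1s1 was above every sibling library (58.1 CPM). The part of immediate early genes or of muscle markers in these results was not tested.

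**Figure D4:**
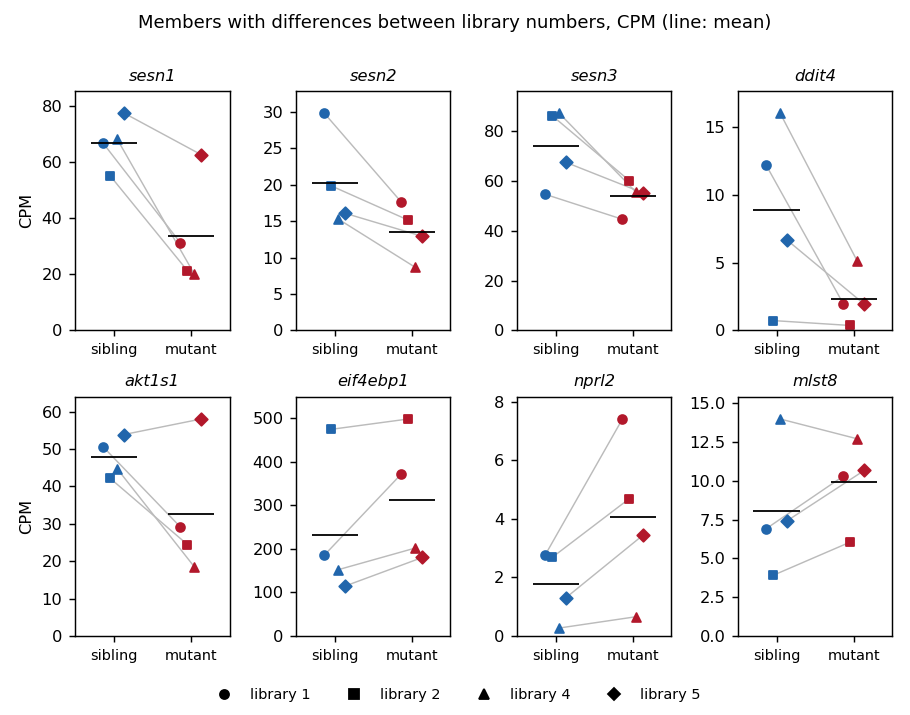
CPM in each library for 8 members whose level differed between library numbers, with grey lines joining the sibling and mutant libraries of 1 number. The lines of sesn1, sesn2, sesn3 and ddit4 all descend from sibling to mutant and those of eif4ebp1 and nprl2 all ascend.

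Among the mTOR complexes no gene passed. mtor, the kinase, was at 19.4 to 25.9 CPM in mutants and 16.7 to 23.1 CPM in siblings (log2 fold change 0.18, SE 0.144, adjusted p = 0.404). angptl7 overlaps it on the other strand with 11.6% as many counts. deptor, which encodes an inhibitor of both complexes and was the most abundant of the 7 genes per length, stood at 52.4, 68.2, 73.7 and 65.7 CPM in mutants and 84.7, 83.0, 85.5 and 69.6 CPM in siblings. The groups overlapped only between mutant library 4 and sibling library 5. The log2 fold change was -0.31 (SE 0.128, adjusted p = 0.101), and deptor passed with the stricter filter (adjusted p = 0.0296) and scaled by library size alone (0.0171).

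rictora, for the defining subunit of mTORC2, stood at 4.49, 4.21, 5.10 and 5.85 CPM in mutants and 10.3, 6.80, 6.93 and 6.43 CPM in siblings. The libraries did not overlap, and the difference did not pass (log2 fold change -0.63, SE 0.223, adjusted p = 0.0621). It passed by DESeq2 (adjusted p = 0.0493), with the stricter filter (0.0275) and scaled by library size alone (0.0272). Its paralog rictorb was at 6.90 ± 1.52 against 6.91 ± 0.887 CPM. The log2 ratio of rictora to rictorb was lower in mutants (-0.55), which did not pass the exact permutation test over the 6 pairs (adjusted p = 0.0856).

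akt1s1, for the mTORC1 inhibitor PRAS40, stood at 29.1, 24.5, 18.5 and 58.1 CPM in mutants and 50.6, 42.2, 44.7 and 53.9 CPM in siblings. Mutant library 5 stood apart from the other mutants, as it did for sesn1, where it lay within the sibling range. For akt1s1 it was above every sibling library. The log2 fold change was -0.55 (SE 0.310, adjusted p = 0.220), and akt1s1 passed without mutant library 5 (adjusted p = 0.00541) and with library number as a block (0.0493). rptor, the mTORC1 scaffold, was at 2.32 ± 1.09 against 2.08 ± 0.672 CPM.

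mlst8, shared by both complexes, was at 9.93 ± 2.79 against 8.05 ± 4.24 CPM, and library 2 was the lowest of both genotypes. pgp lies over mlst8 on the other strand with more counts than mlst8 itself, so the value is uncertain. tsc2, the tuberin gene and the only tested one of the TSC and Rheb group, stood at 30.9, 23.4, 12.5 and 27.6 CPM in mutants and 26.4, 22.2, 18.6 and 20.6 CPM in siblings. The groups overlapped (log2 fold change 0.11, SE 0.255, adjusted p = 0.799), and library 4 was lowest in each genotype.

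Of the kinases that phosphorylate ribosomal protein S6, rps6ka1 (ENSDARG00000033437, chromosome 17, 27064158 to 27172352, plus strand) had the smallest adjusted p of all members. It encodes an RSK kinase, which is activated by ERK rather than by mTORC1. It stood at 55.7, 57.2, 68.5 and 52.6 CPM in mutants and at 146, 141, 127 and 123 CPM in siblings. The highest mutant library was far below the lowest sibling library, and the log2 fold change was -1.20 (SE 0.114, adjusted p = 9.9e-05). The gene passed under every alternative run, including a test against a minimum fold of 1.5 (glmTreat, adjusted p = 0.00142).

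The 4E-BP genes, whose proteins block the cap-binding factor eIF4E until mTORC1 phosphorylates them, held 1 gene that fell, 1 that rose (eif4ebp3l) and 2 that did not pass. eif4ebp3 (ENSDARG00000054916, chromosome 21, 26401332 to 26406304, minus strand) stood at 25.9, 12.9, 20.4 and 29.9 CPM in mutants and at 53.9, 46.0, 45.6 and 46.6 CPM in siblings. All mutant libraries were below all siblings, and the log2 fold change was -1.11 (SE 0.229, adjusted p = 0.00625). The lowest mutant library, number 2, was also the lowest in skeletal muscle markers. In mutant library 1 these markers were within the sibling range, and eif4ebp3 (25.9 CPM) was below every sibling library. The part of the markers in this result was not tested.

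eif4ebp3l (ENSDARG00000041607, chromosome 14, 6972868 to 6987649, minus strand) rose 1.44-fold, from 117, 103, 105 and 120 CPM in siblings to 164, 161, 168 and 148 CPM in mutants. The groups did not overlap (log2 fold change 0.53, SE 0.0936, adjusted p = 0.00281). It lies on the chromosome of rraga, 7040 kb away, where 31.2% of 535 tested genes passed, against 28.4% of all tested genes. The log2 ratio of eif4ebp3 to eif4ebp3l was lower in mutants (-1.68), with no overlap between genotypes. The exact permutation p of 0.0286, the smallest possible, became 0.0856 over the 6 pairs, an adjustment that this p could hardly pass.

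eif4ebp1, the 4E-BP gene with the highest mean level per length, varied between libraries of one genotype, at 372, 498, 202 and 180 CPM in mutants and 185, 474, 152 and 115 CPM in siblings. Library 2 was highest in both genotypes, and the mutant was above the sibling within each number. The difference did not pass (log2 fold change 0.43, SE 0.472, adjusted p = 0.542), and it passed with library number as a block (log2 fold change 0.53, adjusted p = 0.0323).

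eif4ebp2 was at 301 to 335 CPM in mutants and 336 to 389 CPM in siblings. These ranges did not overlap, and the difference was small and did not pass (log2 fold change -0.17, SE 0.0889, adjusted p = 0.194), except with the stricter filter (adjusted p = 0.0472) and scaled by library size alone (0.0143). Of the summed level per length of the 4 genes, eif4ebp3 held 3.43% ± 1.58 in mutants and 8.35% ± 1.93 in siblings. The sum itself was 676 to 972 CPM in mutants and 617 to 975 CPM in siblings, which overlapped.

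Other genes of the pathway were taken from 5 lists of inputs and effectors, and 60 of the 70 listed genes were in the table. Of the 53 tested, 12 rose and 7 fell (22.6% and 13.2%), where 14.5% and 13.9% of all tested genes did. In the list of Rag, Ragulator and SLC38A9 genes 6 of 8 tested rose, the targeted rraga among them, and 0 fell. These 6 are part of the 12 that rose over all 5 lists. rragca for RagC was at 52.5 ± 3.06 against 29.1 ± 3.74 CPM (adjusted p = 8.5e-04). The Ragulator gene lamtor2 was at 71.8 ± 8.56 against 38.8 ± 2.74 CPM (adjusted p = 6.0e-04). Among KICSTOR and other nutrient sensors 1 of 3 tested rose, and none of the 6 tested further subunits and assembly factors passed.

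Insulin, PI3K and AMPK inputs held 3 genes that rose and 3 that fell of 18 tested (16.7% each way, against 14.5% and 13.9% of all tested genes). The receptor genes insra (23.5 ± 2.85 against 36.5 ± 3.48 CPM, adjusted p = 0.00572) and igf1rb (0.266 ± 0.137 against 0.928 ± 0.334 CPM, adjusted p = 0.0343) fell. ptenb, for the phosphatase that opposes PI3K, rose 2.46-fold (adjusted p = 1.1e-04), from 287 ± 22.0 to 706 ± 104 CPM. pik3cd, a leukocyte PI3K catalytic subunit gene, was at 16.6 ± 4.14 CPM in mutants against 34.9 ± 6.31 CPM and fell (log2 fold change -1.07, SE 0.207, adjusted p = 0.00443). Both changes left no overlap between the libraries of the genotypes. pik3ca, another PI3K catalytic subunit gene, rose from 16.6 ± 2.47 to 29.0 ± 8.96 CPM (adjusted p = 0.023). The AMPK subunit gene prkag1 rose from 41.6 ± 2.79 to 52.9 ± 4.71 CPM (adjusted p = 0.0367).

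Of 18 tested kinase substrates and effectors 2 rose and 4 fell (11.1% and 22.2%, against the same 14.5% and 13.9%). pdcd4a, for a translation repressor that S6 kinase marks for degradation, fell from 260 ± 36.1 to 116 ± 12.97 CPM (adjusted p = 2.3e-04), and rps6 itself from 826 ± 150 to 462 ± 66.0 CPM (adjusted p = 0.00358). Of the transcription factors that mTORC1 holds in the cytoplasm, tfeb rose, from 23.3 to 39.4 CPM in siblings to 73.4 to 102 CPM in mutants (log2 fold change 1.38, SE 0.174, adjusted p = 4.6e-04). tfe3a fell, from 33.8 to 46.9 CPM to 13.2 to 17.5 CPM (log2 fold change -1.42, SE 0.143, adjusted p = 1.3e-04). Its paralog tfe3b was scarce, at 3.24 ± 1.03 CPM in mutants against 2.48 ± 0.631 CPM, and did not pass (log2 fold change 0.38, adjusted p = 0.424).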

How the data were processed

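The deposited table holds raw counts made by the authors for each Ensembl gene in 8 libraries, 4 per genotype. The submitters' processing notes name featureCounts 1.5.0, HISAT2 2.0.5 and StringTie 1.3.3b, with GRCz11 as build, and give no role for each. Coordinates, symbols and gene lengths are those of the table. Its 16 other per-library columns were not used. Columns were mapped to a genotype by name and could not be tied to single titled samples.

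The main tests used edgeR 4.0.16 under R 4.3.3, with limma 3.58.1 and DESeq2 1.42.0 for alternatives. Genes were kept by filterByExpr (minimum count 10), scaled with TMM factors and compared by the quasi-likelihood test of edgeR, which was two-sided and had no covariates. P-values were adjusted by Benjamini-Hochberg over all tested genes. CPM used the TMM-scaled library size, and CPM per kilobase divided by gene length. The standard error is the fold change's size over the square root of F. Paralog pairs were compared as log2 ratios of CPM + 0.5, with adjustment over the 6 testable pairs of 9 listed. The procedure was checked on simulated counts with few changed genes and with libraries drawn independently. That check did not cover the pairing or the choice of scaling.

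Same-numbered libraries deviated together from their genotype means (correlations 0.124 to 0.288, against -0.182 to -0.00667 for different numbers), so the number was taken to pair libraries. Deviations from a genotype mean sum to 0, so the negative values for different numbers follow from the positive ones and are not separate evidence. In the column names same-numbered libraries also carry consecutive S numbers, whose meaning the labels do not give. The labels do not state a pairing, the main test leaves it out, and the fit with the number as a block is an alternative, given wherever it changes a member's call. Between libraries of a genotype, chi-square per degree of freedom was 45.8 to 94.8, so none repeated another. The labels call the libraries biological replicates without naming separate clutches, so p-values measure the spread between these libraries.

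The members and lists were chosen with earlier results of these data known. Every library's value is given for members that passed, for members of at least 1.5-fold that did not, and for the most abundant per length of each of 9 roles. Of the other pathway genes, those with the 4 smallest p in each direction are named, and rraga as the targeted gene. sec13, insra, igf1rb, pik3ca, prkag1 and tfe3b are named beyond this rule. They, the members shown beyond the rule for members, and the 14 listed immediate early genes were chosen after values were seen.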

Additional observations from a re-analysis of the deposited data

Results flagged for a closer look

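In 3 of the 62 genotype groups of tested members, 1 library lay so far from the other 3 that its gap to the nearest exceeded Dixon's 95% critical value as a share of the whole range, and about 1 group in 20 does so by chance. rictora was at 10.3 CPM in sibling library 1, against 6.43 to 6.93 CPM in the other siblings. deptor was at 69.6 CPM in sibling library 5, against 83.0 to 85.5 CPM. eif4ebp3 was at 53.9 CPM in sibling library 1, against 45.6 to 46.6 CPM.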

How the results depend on the processing

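Against a minimum fold of 1.5 (glmTreat), 1 member was higher (pdpk1a) and 1 lower (rps6ka1), beside 861 and 742 of all tested genes and 3 and 2 of the other pathway genes. Scaled by library size alone, 4 members were higher and 8 lower, and 11 other pathway genes were lower. The count of lower members was 7 with the stricter filter of 5 CPM in 4 libraries, 5 by DESeq2, and 7 with library number as a block, against 3 in the main test. Lower genes among all tested numbered 2082 (of 9580 tested), 2482 and 2673 at those settings, and 3123 with library size alone, against 2233. The stricter filter left rptor, nprl2, wdr59, akt3a, akt3b and ddit4 untested, so akt3a, lower in the main test, is not among its 7. Leaving out 1 library gave 5 to 6 higher and 2 to 5 lower members, with 5 lower without mutant library 5. It gave 1919 to 2203 higher and 1671 to 2093 lower of all genes, and 9 to 12 higher and 6 to 8 lower of the other pathway genes. The cause of these shifts was not tested. Of 490 member results under the alternatives, 419 kept direction and side of the threshold, 31 lost the call, 24 gained it and 16 changed sign, all of the last for 6 genes that never passed. Over libraries left out, the lowest and highest values of these genes were -0.090 and 0.11 for rictorb, -0.097 and 0.41 for rptor, -0.048 and 0.32 for tsc2, -0.018 and 0.30 for wdr24, and -0.54 and 0.014 for akt3b. rictorb was at 0.042 (median-of-ratios), 0.044 (no filter), 0.043 (DESeq2), and was above 0 without mutant library 1, mutant library 2 (0.063) or sibling library 2. rptor was at -0.032 (library size alone), -0.13 (limma-voom), and -0.010 and -0.097 without mutant library 2 or 4. tsc2 was at -0.068 and wdr24 at -2.3e-04 with library size alone, as was seh1l at -0.064. The sign changed without mutant library 1 for tsc2, mutant library 4 for wdr24 and sibling library 2 for akt3b (all log2 fold changes). The block fit of the paralog ratios equals the unpaired difference by construction, and the exact permutation test over 4 pairs cannot go below p = 0.125. With a pseudocount of 2 CPM no paralog pair passed either. At their counts rheb, flcn, tsc1b and rps6kb1a could be fitted only with no filter (adjusted p from 0.405 to 0.553), and the cause of those low counts was not tested.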

Other observations

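akt2l, an AKT2-like gene of the deposited table that is no member and was chosen after its values were seen, was at 8.91, 7.85, 9.89 and 11.0 CPM in mutants and at 45.7, 38.9, 39.8 and 37.7 CPM in siblings. The difference on the log2 scale was -2.10 (SE 0.142), with an adjusted p of 1.3e-05 in edgeR, past that of any tested member. The sources used here do not say how reads shared with akt2, which did not pass, were counted.

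The 35 members lie on 17 chromosomes, and 3 pairs are within 500 kb of each other. rictorb and eif4ebp1 are 175 kb apart on chromosome 21, wdr24 and pdpk1b 314 kb apart on chromosome 24, and tsc2 and akt3b 442 kb apart on chromosome 1. In none of these pairs did both genes pass, and pdpk1b was the only one of the 6 genes that rose.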
